A study of Mus musculus with 17 samples.

Results

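The genes described here were the secreted ligands, receptors and secreted regulators of WNT signalling. They were taken as every protein-coding gene of the deposited table whose name was Wnt, Fzd, Sfrp, Dkk or Rspo followed by a number, together with Lgr4, Lgr5, Lgr6, Lrp5, Lrp6, Ror1, Ror2 and Wif1. The rule used names and no measured values, but it was chosen with earlier results of these data known. This gave 49 of 43346 genes: 19 WNT ligands, 10 Frizzled receptors, 2 LRP co-receptors, 2 ROR receptors, 4 R-spondins, 3 LGR receptors and 9 secreted antagonists. RNA was sequenced from 17 samples of bile duct in a study of mouse extrahepatic cholangiocarcinoma, a tumour of the ducts that carry bile from the liver to the gut. All samples carried the same label, bile duct, and the labels gave no strain, genotype, age, treatment or disease state, so no condition could be compared. Names of the 17 count columns joined a code to a running number, with 3 columns each for R62848, R62850, R63289, R63496 and R63500 and 2 for R63494. The labels do not say what a code stands for, and no column name matched a single sample, so libraries are called by their column names, and tests between codes measure only whether libraries of different codes differed more than libraries that share a code, which may be technical.

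WNT proteins are secreted lipid-modified ligands that bind Frizzled receptors on nearby cells, and together with the co-receptors LRP5 and LRP6 they stabilise β-catenin, which then acts with TCF/LEF factors on target genes. WNT5A-type ligands can also act through ROR receptors without β-catenin. R-spondins bind LGR receptors and raise the number of Frizzled receptors at the cell surface, whereas WIF1 and the secreted Frizzled-related proteins bind WNT ligands, and most Dickkopf proteins bind LRP5 and LRP6. In the liver and bile ducts the pathway is known for its part in the zonation of hepatocytes and in the growth of biliary epithelium after injury.

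Promoter sequences from RefSeq (build GRCm38.p6), each covering 250 bases before to 50 bases after a RefSeq start of transcription, were held for 32 of the 49 genes. Read on both strands, a TCF/LEF sequence (CTTTG followed by 2 bases that are each A or T) stood in 5 of their 35 windows (14.3%). Over all 32851 windows held, which covered 27025 genes, the share was 16.9%. The windows of the WNT genes held a median of 26.0 CG dinucleotides, against 7.0 over all windows. The first 4 sequences, with every CG in capitals, are those of Wif1, the most abundant of the 49 genes, of Sfrp5, the most variable, and of the neighbouring ligands Wnt9a and Wnt3a. The last 2 are those of Fzd7 and Dkk1, with the TCF/LEF sequences in capitals. All are written 5′ to 3′ on the strand of the gene.
Wif1 (chr10:121033754-121034053, plus strand, 25 CG): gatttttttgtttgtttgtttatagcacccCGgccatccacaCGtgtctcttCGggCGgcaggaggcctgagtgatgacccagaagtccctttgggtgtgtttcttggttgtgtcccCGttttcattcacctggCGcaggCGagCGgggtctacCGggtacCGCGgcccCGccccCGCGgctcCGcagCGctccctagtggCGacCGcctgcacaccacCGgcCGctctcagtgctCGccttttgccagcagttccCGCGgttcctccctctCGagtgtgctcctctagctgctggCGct
Sfrp5 (chr19:42202203-42202502, minus strand, 15 CG): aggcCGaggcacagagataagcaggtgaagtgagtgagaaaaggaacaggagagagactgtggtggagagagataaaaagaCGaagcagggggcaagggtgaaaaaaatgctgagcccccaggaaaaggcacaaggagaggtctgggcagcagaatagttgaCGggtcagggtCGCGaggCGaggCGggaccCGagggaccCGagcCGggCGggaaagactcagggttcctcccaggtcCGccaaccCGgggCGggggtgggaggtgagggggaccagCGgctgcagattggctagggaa
Wnt9a (chr11:59306680-59306979, plus strand, 58 CG): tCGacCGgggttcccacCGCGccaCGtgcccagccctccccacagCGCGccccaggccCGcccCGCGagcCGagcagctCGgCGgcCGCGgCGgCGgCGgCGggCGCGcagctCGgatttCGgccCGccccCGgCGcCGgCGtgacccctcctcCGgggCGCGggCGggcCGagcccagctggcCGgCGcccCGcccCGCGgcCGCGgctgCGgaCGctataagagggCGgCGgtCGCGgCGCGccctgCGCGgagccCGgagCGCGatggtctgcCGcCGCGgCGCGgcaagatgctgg
Wnt3a (chr11:59290702-59291001, minus strand, 45 CG): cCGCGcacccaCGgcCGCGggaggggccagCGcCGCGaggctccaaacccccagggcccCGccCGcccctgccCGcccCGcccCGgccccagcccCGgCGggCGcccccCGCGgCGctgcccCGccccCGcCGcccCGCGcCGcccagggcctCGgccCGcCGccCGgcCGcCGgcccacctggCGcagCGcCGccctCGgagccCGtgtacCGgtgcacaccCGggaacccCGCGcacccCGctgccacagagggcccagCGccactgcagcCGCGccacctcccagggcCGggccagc
Fzd7 (chr1:59481897-59482196, plus strand, 1 TCF/LEF sequence): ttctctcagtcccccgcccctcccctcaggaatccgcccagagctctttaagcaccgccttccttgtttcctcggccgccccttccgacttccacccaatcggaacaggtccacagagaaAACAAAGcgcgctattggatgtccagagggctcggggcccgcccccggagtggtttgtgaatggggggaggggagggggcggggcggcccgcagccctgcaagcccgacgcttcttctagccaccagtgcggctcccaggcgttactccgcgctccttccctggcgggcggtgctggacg
Dkk1 (chr19:30549447-30549746, minus strand, 2 TCF/LEF sequences): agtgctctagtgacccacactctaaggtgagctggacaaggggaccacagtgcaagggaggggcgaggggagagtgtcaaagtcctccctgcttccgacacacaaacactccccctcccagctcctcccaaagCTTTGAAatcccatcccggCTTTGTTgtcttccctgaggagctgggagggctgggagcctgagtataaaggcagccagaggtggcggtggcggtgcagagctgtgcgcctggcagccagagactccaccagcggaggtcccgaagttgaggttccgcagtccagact

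Library totals were 16400556 to 24152314 counts, with a median of 17886041, and the 49 genes held 0.114% to 0.168% of them. The cholangiocyte marker list (10 genes, keratins and Epcam among them) summed to 6403 to 9160 CPM (counts per 1e+06 counts, TMM-scaled), so markers of the labelled tissue were present in every library. The libraries of R62850 stood apart by RNA of pancreatic acinar enzymes, which made up 0.4055% to 8.095% of their counts, against at most 0.002556% in the libraries of the other codes. Counts of 4 Y-linked genes were found only in the libraries of R62850 and R63494. Whether either bears on the WNT genes was not tested, and counts without the libraries of these 2 codes are given beside the first count.

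The secreted antagonists were the most abundant group of the WNT genes, ahead of the ligands and the Frizzled receptors. Of the 49 genes, 30 passed the filter on low counts, 33 were counted in every library and 25 had a median of at least 1 RPKM (CPM per kilobase of gene, the scale used here to compare genes). Summed over a role, the antagonists stood at 80.9 to 212 RPKM with a median of 178 over the 17 libraries, the ligands at 55.8 to 74.4 with a median of 66.8, and the Frizzled receptors at 35.9 to 66.2 with a median of 54.4. LRP co-receptors summed to 30.3 to 48.2 RPKM, LGR receptors to 12.2 to 19.1, ROR receptors to 1.48 to 6.20 and R-spondins to 1.27 to 4.03. The summed level of the ligands varied least, by 1.33-fold between the lowest and the highest library, and that of the ROR receptors most, by 4.18-fold. The 19 genes that did not pass the filter had at most 75 counts in any library, and 2 of them, the antagonist Dkk1 and the ligand Wnt8a, had 0 counts in all 17, where 3 counts would have been 0.13 to 0.206 CPM. That limit and the shares given here cover counting error only, because amplified copies of a molecule cannot be recognised in these counts.

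**Figure D1:**
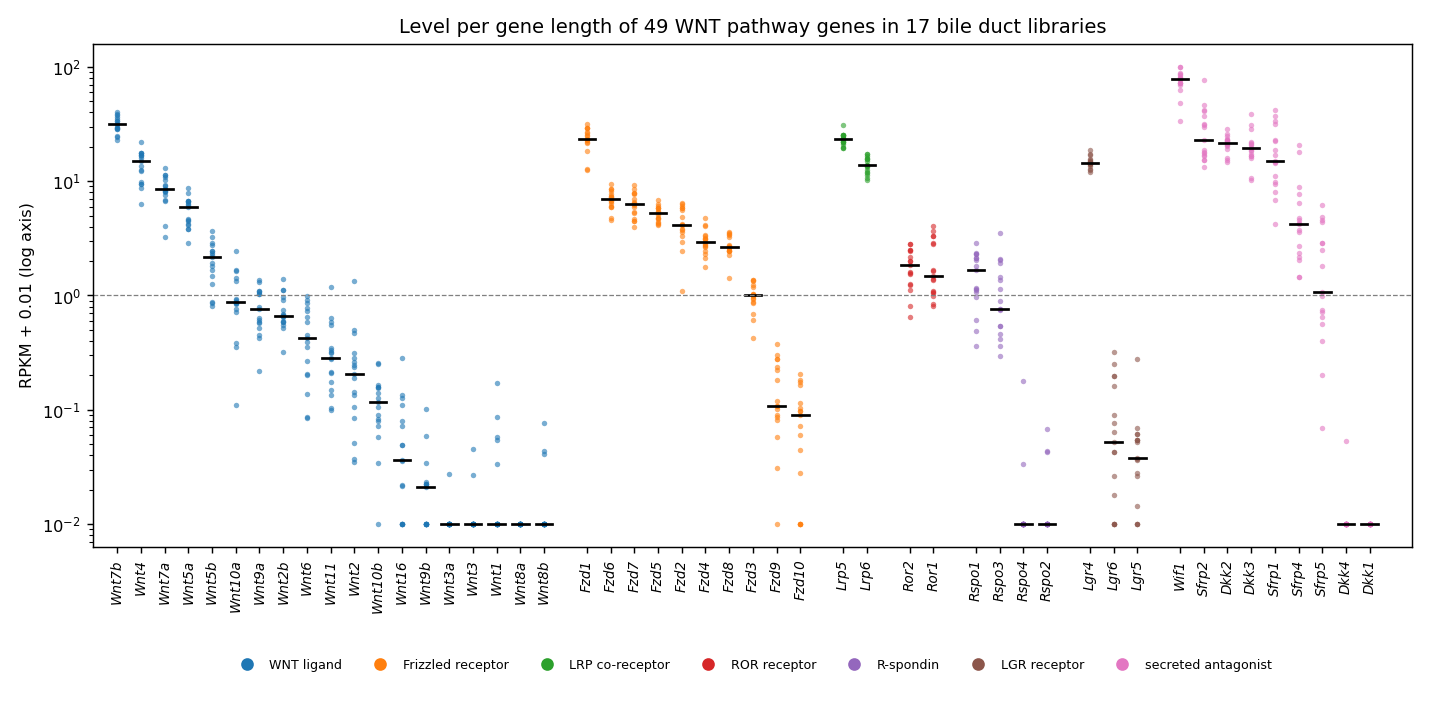
Level of each of the 49 genes in RPKM plus 0.01 on a log axis, ordered within each role by median. Points are the 17 libraries, black bars medians, colours roles, and the dashed line marks 1 RPKM. Wif1 stood highest with a median of 78.1 RPKM, and Wnt7b led the ligands with 31.7 RPKM.

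The WNT genes varied more between libraries than the other genes of the table did. Over the 17 libraries the median standard deviation of log2 CPM was 0.48 for the 30 tested WNT genes and 0.27 for all 15795 tested genes, and within codes it was 0.25 and 0.19. Libraries of different codes differed for 25 of the 30 WNT genes (83.3%), whereas 48.7% of all tested genes passed the same test (edgeR's quasi-likelihood F test over the 6 codes, Benjamini-Hochberg adjusted p below 0.05). The 5 that did not pass were the Frizzled receptors Fzd3, Fzd5 and Fzd8, the co-receptor Lrp5 and the ligand Wnt2b, with adjusted p of 0.739, 0.0855, 0.0845, 0.0897 and 0.281 in that order. Without the libraries of R62850, 24 WNT genes and 6409 of all genes passed, and without those of R63494, 23 and 6996 did. With every library, 7692 of all genes passed. Both of these alternatives came after seeing the data.

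Set against the mean of the other 5 codes, R63494 had low WNT genes, and R62848 and R63500 had high ones. In R63494, 14 of the 30 WNT genes were lower, where 10.6% of all tested genes were, and 3 were higher, where 9.3% of all were. With upper-quartile factors the split in R63494 was 15 lower and 1 higher, and the number called was 10 without R63494_1 and 8 without R63494_2. The median log2 difference over the 30 genes was -0.50 in R63494, against 0.01 over all tested genes. In R62848, 11 of 30 were higher (15.2% of all genes) and 2 lower (10.6% of all), with a median log2 difference of 0.19. In R63500, 11 were higher (13.2% of all) and 2 lower (8.93% of all), with a median of 0.28. R62850 split evenly, with 5 higher (11.7% of all) and 5 lower (12.8% of all), and 5 in all without R62850_2. R63289 had 4 higher (2.44% of all) and 2 lower (2.17% of all), and R63496 had 3 higher (4.98% of all) and 2 lower (6.52% of all). These counts rested on single libraries: no WNT gene was called by edgeR in R63289 without R63289_2 or in R63496 without R63496_2, where 10 of 29 and 6 of 29 had an unadjusted p below 0.05, in that order, and with upper-quartile factors R63289 had 5 higher and 1 lower and R63496 3 higher and 1 lower. These 6 contrasts share libraries and are not independent of each other. Each log2 fold change is a code over the mean of the other codes, ± its standard error, with the adjusted p of edgeR's quasi-likelihood test, and each call was recomputed under 24 alternatives, of which 17 left out a library. Sfrp5 fell below the filter on low counts without 15 of the 17 libraries and was then recomputed with the genes of the full table kept, a choice made after seeing the data.

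**Figure D2:**
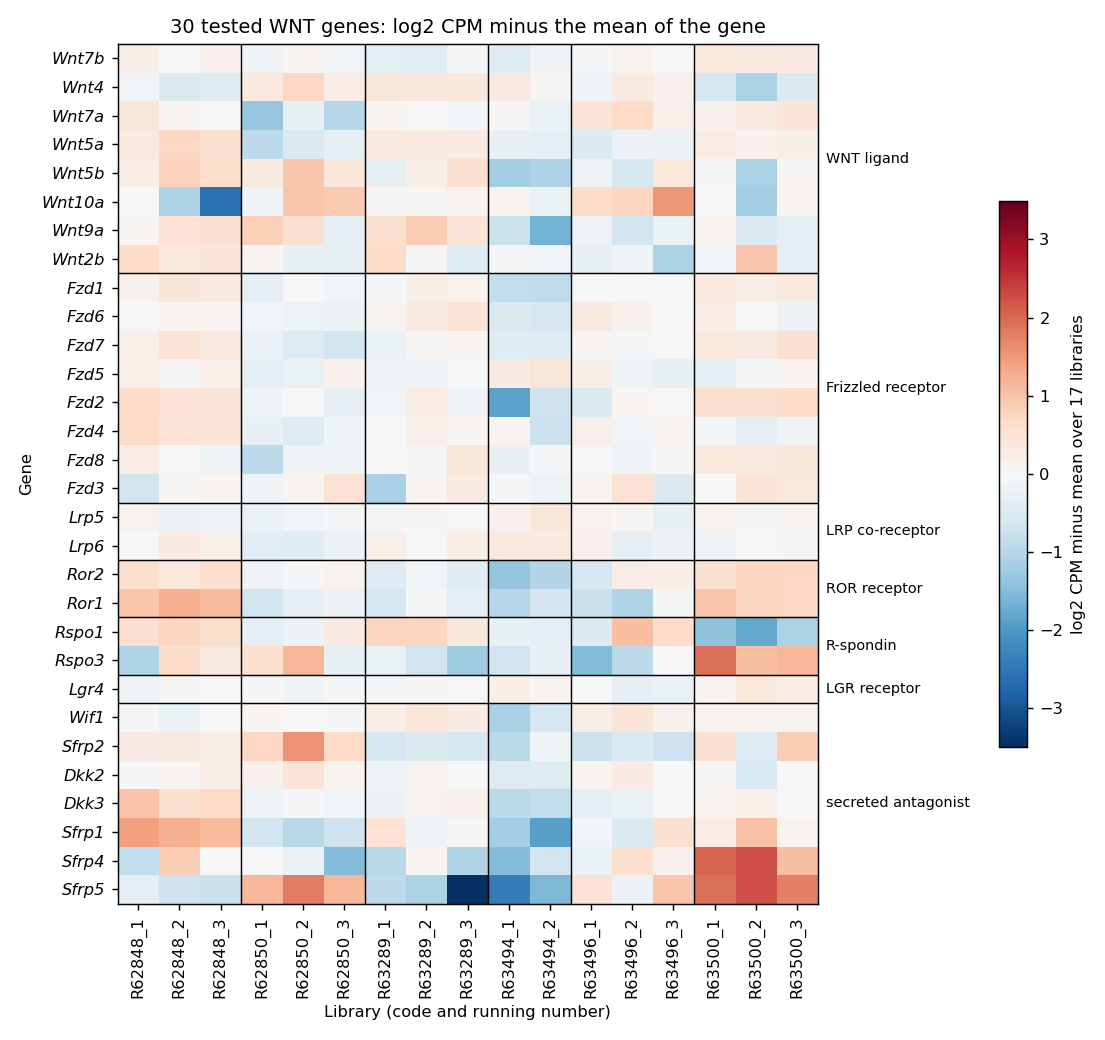
Log2 CPM of the 30 tested genes in each of the 17 libraries, minus the mean of the gene over all libraries, with genes in rows by role, libraries in columns by code and a colour scale from blue (below the mean) to red (above). The 2 libraries of R63494 are blue for most Frizzled, ROR and antagonist genes, and the 3 libraries of R63500 are red for Rspo3, Sfrp4 and Sfrp5.

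Several cell type marker lists differed between the same codes, and others did not follow them. Summed fibroblast markers (10 genes, all called between codes, where 48.7% of all tested genes were) stood at 2846 to 3141 CPM in R63494. They stood at 10529 to 11165 CPM in R62848 and at 9858 to 11994 CPM in R63500, against 4633 to 6728 CPM in the libraries of the other 3 codes. By single genes, all 10 were lower in R63494 (10.6% of all tested genes) and all 10 higher in R62848 (15.2% of all). In R63500, 7 were higher (13.2% of all) and 1 was lower (8.93% of all). Endothelial markers (8 genes, 7 called) summed to 167 to 199 CPM in R63494, 394 to 449 CPM in R62848 and 312 to 358 CPM in R63500, against 198 to 251 CPM in the libraries of the other 3 codes. Smooth muscle and pericyte markers (8 genes, 5 called) summed to 558 to 625 CPM in R62848. The 313 to 363 CPM of R63494 overlapped R63496 (317 to 385 CPM). In R63500 they summed to 371 to 509 CPM, overlapping R63496, R62850 (376 to 479 CPM) and R63289 (387 to 407.5 CPM). Of the 8 genes, 5 were higher in R62848 (15.2% of all tested genes). In R63500, 4 were higher (13.2% of all) and 0 lower (8.93% of all). In R63494, 3 were lower (10.6% of all), and in R63496, 2 were (6.52% of all). Macrophage markers (7 of 8 listed genes found, all 7 called) summed to 615 to 788 CPM in R63494, 1149 to 1192 CPM in R62848 and 1156 to 1448 CPM in R63500, against 964 to 1407 CPM in R63496 and 922 to 1095 CPM in R62850 and R63289. Mesothelial markers (1 of 6 genes tested and called) summed to 73.6 to 74.6 CPM in R63494 and 201 to 223 CPM in R62848, while the 113 to 153 CPM of R63500 overlapped R62850 (121 to 169 CPM) and R63496 (141 to 197 CPM). Schwann cell markers (3 of 6 tested, 2 called) ran the other way, at 70.1 to 79.2 CPM in R62848 and 65.2 to 79.2 CPM in R63500, against 98.2 to 101 CPM in R63494 and 96.3 to 128 CPM in the libraries of the other 3 codes. Summed cholangiocyte markers (10 genes, all called) were highest in R63496, at 8031 to 9160 CPM, overlapping R63500 (7079 to 8984 CPM). They stood at 7329 to 7814 CPM in R63494 and 7014 to 7579 CPM in R62848. Taken gene by gene, 1 of the 10 was higher in R63496 (4.98% of all tested genes) and 1 lower (6.52% of all). In R62848, 1 was higher (15.2% of all) and 5 lower (10.6% of all). In R63494, 3 were higher (9.3% of all) and 2 lower (10.6% of all). In R63500, 2 were higher (13.2% of all) and 2 lower (8.93% of all). The part of these cell types in the differences between codes was not tested, and in bulk tissue fewer cells of a type cannot be told apart from less RNA per cell.

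**Figure D3:**
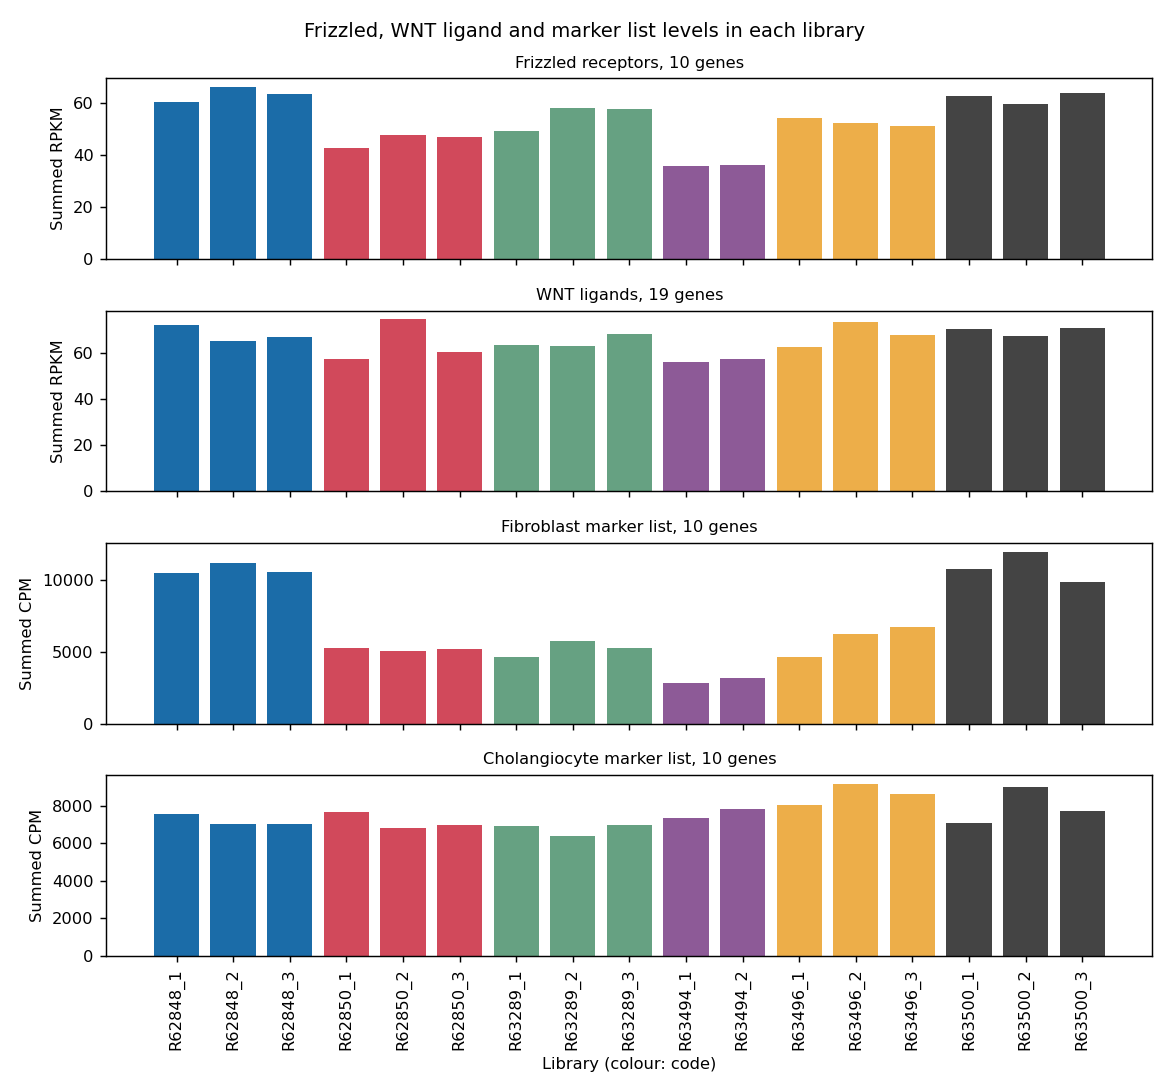
Summed level in each of the 17 libraries, coloured by code, of the 10 Frizzled receptors and 19 WNT ligands (RPKM) and of the fibroblast and cholangiocyte marker lists (CPM, 10 genes each). The Frizzled sum was 35.9 and 36.2 RPKM in R63494 and at least 42.6 RPKM in all other libraries, while the fibroblast sum was 2846 to 3141 CPM in R63494 and at least 9858 CPM in R62848 and R63500.

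Among the ligands, Wnt7b, a ligand of epithelia and of the β-catenin branch, was the most abundant in all 17 libraries. Wnt7b (ENSMUSG00000022382, mm10 chromosome 15, bases 85535439 to 85581821) had a median of 31.7 RPKM (range 22.8 to 40.5), and made up 38.6% to 57.8% of the summed ligand RPKM. Wnt4, a ligand known from the kidney and the female reproductive tract (ENSMUSG00000036856, chromosome 4, bases 137277489 to 137299726), followed with a median of 14.9 RPKM (range 6.25 to 22.2), and Wnt7a, a close relative of Wnt7b, with a median of 8.51 RPKM (range 3.22 to 13). Wnt4 exceeded Wnt7a in 14 of 17 libraries, and Wnt7a exceeded Wnt5a in 15. Wnt5a, the best known ligand of ROR receptors, had a median of 5.93 RPKM (range 2.84 to 8.78), and its relative Wnt5b a median of 2.17 RPKM. Wnt10a, Wnt9a and Wnt2b had medians of 0.858, 0.750 and 0.655 RPKM, and their order held in only 10 of 17 libraries for Wnt10a over Wnt9a and 11 for Wnt9a over Wnt2b. The other 11 ligands had medians of at most 0.412 RPKM. Wnt6, Wnt11 and Wnt2 were counted in every library, with at most 38, 75 and 53 counts, and Wnt10b, Wnt16 and Wnt9b in some, with at most 13, 21 and 9. Wnt1, Wnt3, Wnt3a and Wnt8b had at most 8, 2, 1 and 4 counts.

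**Figure D4:**
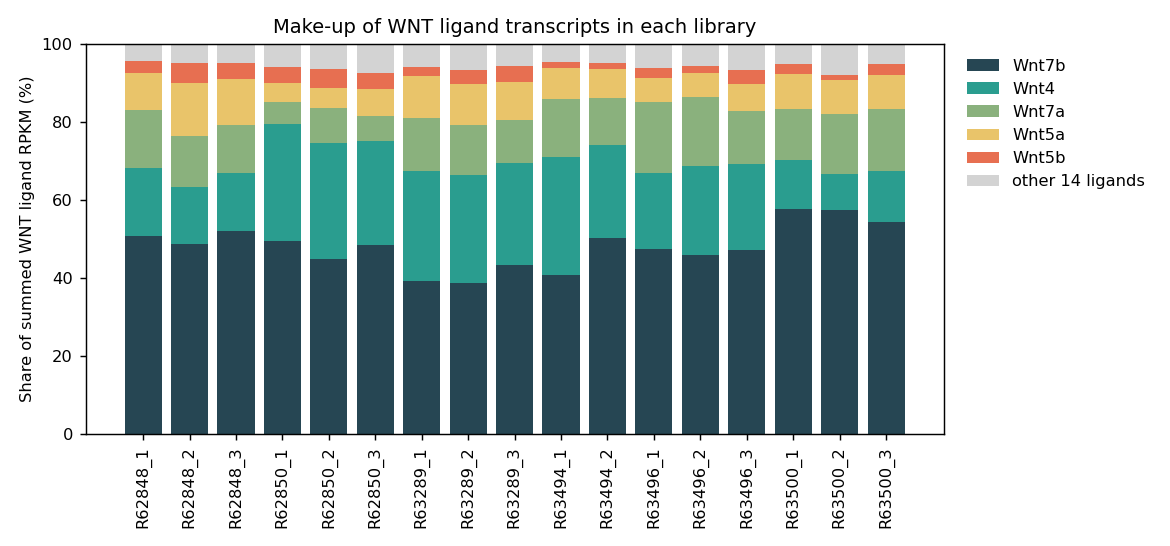
Share of the summed RPKM of all 19 WNT ligands held by each of the 5 most abundant ligands and by the other 14 together, in percent, for each of the 17 libraries. Wnt7b held the most in every library, up to 57.8% in R63500_1, and Wnt4 between 9.31% in R63500_2 and 30.2% in R63494_1.

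Wnt7b and Wnt4 differed in opposite directions in R63500. Wnt7b stood at 179, 170.2 and 168 CPM in R63500, against 100.5 to 161 CPM in the other libraries (log2 fold change 0.41 ± 0.08, adjusted p = 0.000568), with no overlap. Wnt4 stood at 36.6, 26.2 and 39.3 CPM in R63500, below all other libraries, which had 39.8 to 93.1 CPM (log2 fold change -0.89 ± 0.13, adjusted p = 8.74e-05). Over all genes, 2.32% stood in R63500 above and 1.5% below every other library, and among the 30 WNT genes these were 2 above, Wnt7b and Sfrp4, and 2 below, Wnt4 and Rspo1. Wnt4 was also lower in R62848, at 52.8, 39.8 and 41.3 CPM, against 26.2 to 93.1 CPM elsewhere (log2 fold change -0.42 ± 0.13, adjusted p = 0.0213), though not without R62848_2 (-0.34, adjusted p = 0.149) or R62848_3 (-0.39, adjusted p = 0.0996). In R62850 Wnt4 was higher, at 71.7, 93.1 and 67.4 CPM (log2 fold change 0.53 ± 0.12, adjusted p = 0.00383), but not without R62850_2 (0.38, adjusted p = 0.0571). The higher call of Wnt4 in R63289 (log2 fold change 0.46 ± 0.12, adjusted p = 0.0319) was lost in 5 of 24 alternatives, among them without R63289_1 (0.45, adjusted p = 0.158). Wnt7b was lower in R63289 (log2 fold change -0.29 ± 0.08, adjusted p = 0.0422), a call lost in 10 of 24 alternatives, among them without R63289_1 (-0.25, adjusted p = 0.286), and in R63494 (log2 fold change -0.31 ± 0.09, adjusted p = 0.0249; without R63494_1 -0.16, adjusted p = 0.42). The Wnt7b gene overlaps the lincRNA gene AU022754, which had a median of 145 counts.

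Wnt7a was lower in R62850. It stood at 10.2, 21.4 and 12.8 CPM in R62850, against 21.7 to 41.2 CPM in the libraries of the other codes (log2 fold change -0.96 ± 0.17, adjusted p = 0.000754). It was the only tested WNT gene whose R62850 libraries all stood below every other library, a place held by 1.98% of all genes. Wnt7a was higher in R63496, at 35.7, 41.2 and 29.2 CPM (log2 fold change 0.54 ± 0.15, adjusted p = 0.0277), a call lost without R63496_1 (0.53, adjusted p = 0.0627) or R63496_2 (0.42, adjusted p = 0.213).

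Wnt5a and Wnt5b moved together in R62848 and apart in R62850. Wnt5a was higher in R62848, at 52.6, 68.7 and 61.5 CPM, against 22.2 to 52.8 CPM elsewhere (log2 fold change 0.67 ± 0.09, adjusted p = 1.73e-05), and lower in R62850, at 22.2, 29.5 and 32.5 CPM, against 29.9 to 68.7 CPM (log2 fold change -0.67 ± 0.10, adjusted p = 0.00016). In R62848 the ranges overlapped only in the library of 52.6 CPM, and in R62850 only with the library R63496_1. The higher call of Wnt5a in R63289, at 52.8, 51.9 and 51.8 CPM (log2 fold change 0.41 ± 0.09, adjusted p = 0.0134), was lost without any 1 of its libraries, among them R63289_1 (0.40, adjusted p = 0.0961). The lower call in R63496, at 29.9, 36.2 and 35.9 CPM (log2 fold change -0.34 ± 0.10, adjusted p = 0.0339), was lost in 6 of 24 alternatives, among them without R63496_1 (-0.25, adjusted p = 0.143). Wnt5b was higher in R62848, at 6.01, 8.68 and 7.59 CPM (log2 fold change 0.73 ± 0.23, adjusted p = 0.027; without R62848_2 0.60, adjusted p = 0.173, and without R62848_3 0.70, adjusted p = 0.105). In R62850 it was also higher, at 6.20, 9.60 and 6.52 CPM (log2 fold change 0.74 ± 0.24, adjusted p = 0.0278; without R62850_2 0.51, adjusted p = 0.224). In R63494 Wnt5b was lower, at 2.12 and 2.30 CPM, against 2.26 to 9.60 CPM elsewhere (log2 fold change -1.36 ± 0.34, adjusted p = 0.0066). That call was lost without R63494_1 (-1.32, adjusted p = 0.0734) or R63494_2 (-1.42, adjusted p = 0.064), which leaves the code with 1 library, assumed to vary like those of the other codes. The gene Fbxl14, with a median of 851 counts, overlaps Wnt5b, and with the strand setting of the counting unknown, reads of the pair may be shared.

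Wnt10a and Wnt9a, ligands known from tooth and hair and from joints, were scarce and their calls rested on few libraries. Wnt10a stood at 3.27, 3.51 and 6.07 CPM in R63496, against 0.245 to 4.09 CPM elsewhere (log2 fold change 1.15 ± 0.34, adjusted p = 0.036), and was not called in 5 of 24 alternatives, among them without R63496_3 (0.81, adjusted p = 0.239). In R62848 it stood at 2.03, 0.922 and 0.245 CPM, against 0.846 to 6.07 CPM (log2 fold change -1.20 ± 0.42, adjusted p = 0.0429), not called in 11 of 24 alternatives, among them without R62848_3 (-0.78, adjusted p = 0.21). Wnt9a stood at 1.39 and 0.693 CPM in R63494, below all other libraries, which had 1.47 to 4.53 CPM (log2 fold change -1.42 ± 0.37, adjusted p = 0.0101), and was not called without R63494_2 (-0.97, adjusted p = 0.192). Both have a neighbouring ligand gene. Wnt9a lies 16175 bases from Wnt3a on chromosome 11 with no coding gene between, and stood higher than it in 17 of 17 libraries, Wnt3a having 1 count in all. Wnt10a lies 6193 bases from Wnt6 on chromosome 1 and stood higher in 15 of 17. Of the other neighbouring pairs, Wnt10b exceeded Wnt1 (chromosome 15, 11706 bases apart) in 15 of 17 libraries and Wnt9b exceeded Wnt3 (chromosome 11, 24328 bases apart) in 7 of 17, all at or near 0 counts. In the sequences printed above, the promoter of Wnt3a, a gene with 1 count, held 45 CG, and that of Wnt9a 58.

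The Frizzled receptors, the receptors that bind WNT ligands directly, were led by Fzd1 in all 17 libraries. Fzd1 (ENSMUSG00000044674, chromosome 5, bases 4753873 to 4758035) had a median of 23.3 RPKM (range 12.4 to 31.4). Fzd6, which is known for planar cell polarity, had a median of 6.95 RPKM (range 4.56 to 9.45), and Fzd7 had a median of 6.36 RPKM (range 3.98 to 9.29). Fzd6 exceeded Fzd7 in 12 of 17 libraries, so that these neighbours in the order did not stand clearly apart. Fzd5, Fzd2, Fzd4 and Fzd8 had medians of 5.23, 4.12, 2.90 and 2.65 RPKM, and Fzd3 0.990 RPKM. Fzd9 and Fzd10 had at most 18 and 12 counts in any library.

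Of the 8 Frizzled receptors tested, 4 were lower and 1 higher in R63494 (10.6% and 9.3% of all tested genes), 4 were higher in R62848 (15.2% of all) and 3 in R63500 (13.2% of all). Fzd1 stood at 53.1 and 51.8 CPM in R63494, below all other libraries, which had 75.8 to 131 CPM (log2 fold change -0.99 ± 0.10, adjusted p = 8.52e-07). It was higher in R62848, at 106, 131 and 122 CPM (log2 fold change 0.44 ± 0.07, adjusted p = 0.000144), and in R63500, at 121, 113 and 122 CPM (log2 fold change 0.43 ± 0.07, adjusted p = 0.000226). The levels of Fzd1 in these 2 codes overlapped with each other. Fzd2, a receptor used by WNT5A in several cell types, stood at 3.99 and 8.97 CPM in R63494, against 10.6 to 23.4 CPM elsewhere (log2 fold change -1.36 ± 0.22, adjusted p = 0.000171). Fzd2 was higher in R62848, at 23.3, 21.3 and 20.3 CPM (log2 fold change 0.71 ± 0.15, adjusted p = 0.002), and in R63500, at 22.2, 21.4 and 23.4 CPM (log2 fold change 0.76 ± 0.15, adjusted p = 0.00107).

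Fzd7 was called in R62848, R63500 and R63494 in the same directions as Fzd1 and Fzd2, and also in R62850. Fzd6, Fzd4 and Fzd5 were called in other sets of codes. Fzd6 stood at 19.8 and 18.8 CPM in R63494, against 24.4 to 39.1 CPM elsewhere, with no overlap (log2 fold change -0.63 ± 0.12, adjusted p = 0.00115), and was higher in R63289, at 30.3, 35.3 and 39.1 CPM (log2 fold change 0.40 ± 0.10, adjusted p = 0.0187; without R63289_2 0.39, adjusted p = 0.12, and without R63289_3 0.31, adjusted p = 0.215). Fzd7, whose promoter carried the AACAAAG sequence printed above, was higher in R62848, at 31.8, 39 and 35.5 CPM (log2 fold change 0.43 ± 0.10, adjusted p = 0.00251), and in R63500, at 35.9, 35.1 and 42.1 CPM (log2 fold change 0.54 ± 0.09, adjusted p = 0.000329). Fzd7 was lower in R62850, at 24.5, 20.3 and 18 CPM, against 20.4 to 42.1 CPM elsewhere (log2 fold change -0.48 ± 0.10, adjusted p = 0.00277), and in R63494 at 20.9 and 20.4 CPM (log2 fold change -0.50 ± 0.12, adjusted p = 0.00599; without R63494_1 -0.53, adjusted p = 0.0504, and without R63494_2 -0.48, adjusted p = 0.0742). The values of the 2 low codes lay side by side and overlapped. Fzd4, the receptor of norrin as well as of WNT ligands, stood at 17.4, 15.1 and 15 CPM in R62848, above all other libraries, which had 6.45 to 12.3 CPM (log2 fold change 0.67 ± 0.14, adjusted p = 0.00136). Fzd5 was the exception in R63494, at 43.2 and 47.7 CPM, above all others (log2 fold change 0.39 ± 0.12, adjusted p = 0.0313), a call lost without R63494_1 (0.45, adjusted p = 0.0933) or R63494_2 (0.31, adjusted p = 0.268) and with upper-quartile factors (0.34, adjusted p = 0.0508).

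The co-receptors Lrp5 and Lrp6, which pair with Frizzled receptors in the β-catenin branch, were abundant and did not share the low levels of R63494. Lrp5 (chromosome 19, bases 3584828 to 3686564) had a median of 23.2 RPKM (range 19.6 to 30.9) and Lrp6 a median of 13.8 RPKM (range 10.3 to 17.4), and Lrp5 exceeded Lrp6 in 17 of 17 libraries. Lrp5 stood at 249 and 301 CPM in R63494, above all other libraries, which had 191 to 247 CPM (log2 fold change 0.31 ± 0.10, adjusted p = 0.0266), a call lost without R63494_2 (0.17, adjusted p = 0.435), with upper-quartile factors (0.27, adjusted p = 0.056) and with the running number of the columns as a block (0.30, adjusted p = 0.0562). Lrp6 stood at 171 and 170.5 CPM, against 101 to 164 CPM (log2 fold change 0.38 ± 0.09, adjusted p = 0.00628; without R63494_1 0.37, adjusted p = 0.0724, and without R63494_2 0.38, adjusted p = 0.0615). Lrp5 and Fzd5 were thus called in this contrast although neither passed the test over all codes. With Fzd5, Lrp5 and Lrp6 were the 3 WNT genes whose R63494 libraries stood above every other library, a place held by 4.43% of all genes. Lrp6 was lower in R62850, at 104, 101 and 117 CPM, against 111 to 171 CPM elsewhere (log2 fold change -0.42 ± 0.08, adjusted p = 0.0015).

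The receptors Ror1 and Ror2, tyrosine kinase-like receptors of WNT5A, were scarce but differed widely. Ror2 had a median of 1.84 RPKM (range 0.642 to 2.83) and Ror1 a median of 1.46 RPKM (range 0.805 to 4.03), and Ror2 exceeded Ror1 in only 7 of 17 libraries. Ror1 (ENSMUSG00000035305, chromosome 4, bases 100095791 to 100444765) stood at 19.1, 23.2 and 21.2 CPM in R62848, above every other library (log2 fold change 1.37 ± 0.16, adjusted p = 2.43e-06), and at 19, 16.6 and 16.2 CPM in R63500 (log2 fold change 1.02 ± 0.16, adjusted p = 0.000109). The libraries of the other 4 codes had 4.64 to 9.58 CPM of Ror1, with no overlap with either of these codes. Ror1 was lower in R63494, at 4.84 and 6.11 CPM (log2 fold change -0.96 ± 0.23, adjusted p = 0.0049; without R63494_1 -0.82, adjusted p = 0.0937), and in R63496, at 5.65, 4.64 and 9.58 CPM (log2 fold change -0.64 ± 0.19, adjusted p = 0.0319), a call lost in 3 of 24 alternatives, among them without R63496_2 (-0.44, adjusted p = 0.247). Ror2 was higher and lower in the same codes except R63496, where it stood at 4.69, 8.48 and 8.41 CPM (log2 fold change 0.08 ± 0.17, adjusted p = 0.787). It stood at 10.6, 9.22 and 10.7 CPM in R62848 (log2 fold change 0.68 ± 0.16, adjusted p = 0.00354) and at 10.4, 12 and 11.8 CPM in R63500 (log2 fold change 0.88 ± 0.16, adjusted p = 0.000363). In R63494 it stood at 2.72 and 3.42 CPM, below all other libraries, which had 4.69 to 12 CPM (log2 fold change -1.38 ± 0.23, adjusted p = 0.000228).

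The R-spondins, secreted proteins that strengthen WNT signals, differed most in R63500. Rspo1 had a median of 1.66 RPKM (range 0.349 to 2.86) and Rspo3 a median of 0.758 RPKM (range 0.283 to 3.50), and Rspo1 exceeded Rspo3 in 12 of 17 libraries. Rspo3 exceeded Rspo1 in the 3 libraries of R63500 and in 2 of R62850, with 1.34 against 1.10 RPKM in R62850_1 and 2.05 against 1.15 RPKM in R62850_2. Rspo1 (chromosome 4, bases 124986430 to 125009099) stood at 0.921, 0.677 and 1.16 CPM in R63500, below all other libraries, which had 1.86 to 5.54 CPM (log2 fold change -1.81 ± 0.32, adjusted p = 0.000296). Rspo3 (chromosome 10, bases 29453109 to 29535867) stood at 8.38, 4.57 and 4.95 CPM in R63500, against 0.677 to 4.91 CPM elsewhere (log2 fold change 1.71 ± 0.33, adjusted p = 0.000716), with overlap only by the library R62850_2. Rspo1 thus made up 11.8% of the R-spondin RPKM in R63500_1 and 83.5% in R62848_1. Rspo1 was higher in R62848, at 3.98, 4.50 and 4.10 CPM (log2 fold change 0.80 ± 0.25, adjusted p = 0.0219; without R62848_2 0.75, adjusted p = 0.103, and without R62848_3 0.80, adjusted p = 0.0718). Rspo2 and Rspo4 had at most 4 and 7 counts in any library.

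Of the R-spondin receptors, Lgr4 held 98.0% to 100% of the LGR level. Lgr4 (chromosome 2, bases 109917647 to 110014257) had a median of 14.5 RPKM (range 12.1 to 18.9) and the smallest standard deviation of log2 CPM of the 30 tested genes, 0.17. It stood at 90.4, 111 and 102 CPM in R63500, against 71.1 to 99 CPM elsewhere (log2 fold change 0.26 ± 0.07, adjusted p = 0.0108; without R63500_2 0.18, adjusted p = 0.194, and without R63500_3 0.24, adjusted p = 0.079). Lgr5, known as a marker of stem cells in the gut and as a target of β-catenin, had 0 to 10 counts in 16 libraries and 50 counts in R62850_2. Lgr6 had 23 to 40 counts in R63500 and 0 to 21 in the libraries of the other codes. Neither passed the filter on low counts. With no filter, Lgr6 was called higher in R63500 (log2 fold change 3.44 ± 0.65, adjusted p = 2.55e-05) and in R62848 (1.99 ± 0.71, adjusted p = 0.0429), and lower in R63494, where it had 0 counts (adjusted p = 0.00904).

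The secreted antagonists were led by Wif1, which binds WNT ligands directly. Wif1 (ENSMUSG00000020218, chromosome 10, bases 121033960 to 121100650) had a median of 78.1 RPKM (range 33.6 to 100.02), the highest median of the 49 genes, and exceeded Sfrp2 in 16 of 17 libraries. Sfrp2, Dkk2, Dkk3 and Sfrp1 followed with medians of 22.8, 21.7, 19.4 and 15 RPKM, and neighbours in this order kept it in 10 to 12 of 17 libraries. Sfrp4 had a median of 4.22 RPKM and Sfrp5 of 1.07 RPKM, and Dkk4 had 1 count in all. All 7 tested antagonists differed between codes, where 48.7% of all tested genes did.

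Of the 7 antagonists, 5 were lower in R63494, where 10.6% of all tested genes were. Wif1 stood at 81.5 and 116 CPM in R63494, below all other libraries, which had 153 to 243 CPM (log2 fold change -0.97 ± 0.11, adjusted p = 3.57e-06). Dkk3, a divergent Dickkopf protein, stood at 34.1 and 36 CPM in R63494, against 53 to 129.6 CPM elsewhere, with no overlap (log2 fold change -1.02 ± 0.12, adjusted p = 4.96e-06). Sfrp1 stood at 30.02 and 18.4 CPM, against 35 to 185 CPM (log2 fold change -1.74 ± 0.33, adjusted p = 0.00291; without R63494_2 -1.42, adjusted p = 0.0583). These 3 were among the 8 WNT genes whose R63494 libraries stood below every other library, a place held by 5.62% of all genes, and the other 5 were Fzd1, Fzd2, Fzd6, Ror2 and Wnt9a. Dkk2 stood at 56.8 and 58.3 CPM in R63494, against 54.3 to 106 CPM (log2 fold change -0.50 ± 0.13, adjusted p = 0.00812; without R63494_1 -0.49, adjusted p = 0.0821, and without R63494_2 -0.52, adjusted p = 0.0728). Wif1 was higher in R63289, at 211, 240.5 and 216 CPM (log2 fold change 0.43 ± 0.08, adjusted p = 0.00301; without R63289_2 0.37, adjusted p = 0.0609), and in R63496, at 205, 243 and 198 CPM (log2 fold change 0.38 ± 0.08, adjusted p = 0.00585; without R63496_2 0.28, adjusted p = 0.106).

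Sfrp1, which binds WNT ligands through a Frizzled-like domain, and Dkk3 were highest in R62848. Sfrp1 (chromosome 8, bases 23411502 to 23449632) stood at 185, 161 and 146 CPM in R62848, above all other libraries, which had 18.4 to 139 CPM (log2 fold change 1.58 ± 0.21, adjusted p = 0.000185). Dkk3 stood at 129.6, 95.8 and 104 CPM, against 34.1 to 73.4 CPM (log2 fold change 0.96 ± 0.08, adjusted p = 6.68e-08). With Ror1 and Fzd4, these were the 4 WNT genes whose R62848 libraries stood above every other library, a place held by 2.87% of all genes. Sfrp1 was lower in R62850, at 42.5, 35 and 41.4 CPM (log2 fold change -0.88 ± 0.26, adjusted p = 0.0273), a call lost without any 1 of its libraries, of which R62850_2 gave the highest adjusted p (-0.79, adjusted p = 0.109). Its call in R63500, at 82, 139 and 73.8 CPM (log2 fold change 0.69 ± 0.23, adjusted p = 0.046), was lost in 18 of 24 alternatives, with DESeq2 size factors among them (0.68, adjusted p = 0.0511).

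Sfrp2, Sfrp4 and Sfrp5 had their high levels in R62850 or R63500. Sfrp2 stood at 91, 164 and 88.1 CPM in R62850, against 28.6 to 99.4 CPM elsewhere (log2 fold change 1.26 ± 0.22, adjusted p = 0.00203), with overlap by R63500_3 alone. An antisense gene, Gm26771, with a median of 181 counts, overlaps Sfrp2. Dkk2 was higher in R62850, at 86, 106 and 84.9 CPM (log2 fold change 0.31 ± 0.10, adjusted p = 0.0293; without R62850_2 0.20, adjusted p = 0.242). Sfrp4 (chromosome 13, bases 19623175 to 19632821) stood at 31.3, 36.2 and 15.7 CPM in R63500, above all other libraries, which had 2.54 to 13.7 CPM (log2 fold change 2.21 ± 0.34, adjusted p = 0.000389). Sfrp5 (ENSMUSG00000018822, chromosome 19, bases 42197971 to 42202252) had the widest spread of all tested WNT genes, with a standard deviation of 1.64 in log2 CPM. Sfrp5 stood at 9.30, 11.8 and 8.37 CPM in R63500 (log2 fold change 2.50 ± 0.29, adjusted p = 3.43e-06) and at 5.41, 8.73 and 5.42 CPM in R62850 (log2 fold change 1.79 ± 0.30, adjusted p = 0.00039). It stood at 0.363 and 0.736 CPM in R63494 (log2 fold change -2.42 ± 0.52, adjusted p = 0.0024; without R63494_1 -2.05, adjusted p = 0.0552), and at 1.21, 1.05 and 0.113 CPM in R63289 (log2 fold change -1.84 ± 0.41, adjusted p = 0.0119; without R63289_3 -1.34, adjusted p = 0.0594). The libraries of R62848 and R63496 lay between, at 1.35 to 4.74 CPM.

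**Figure D5:**
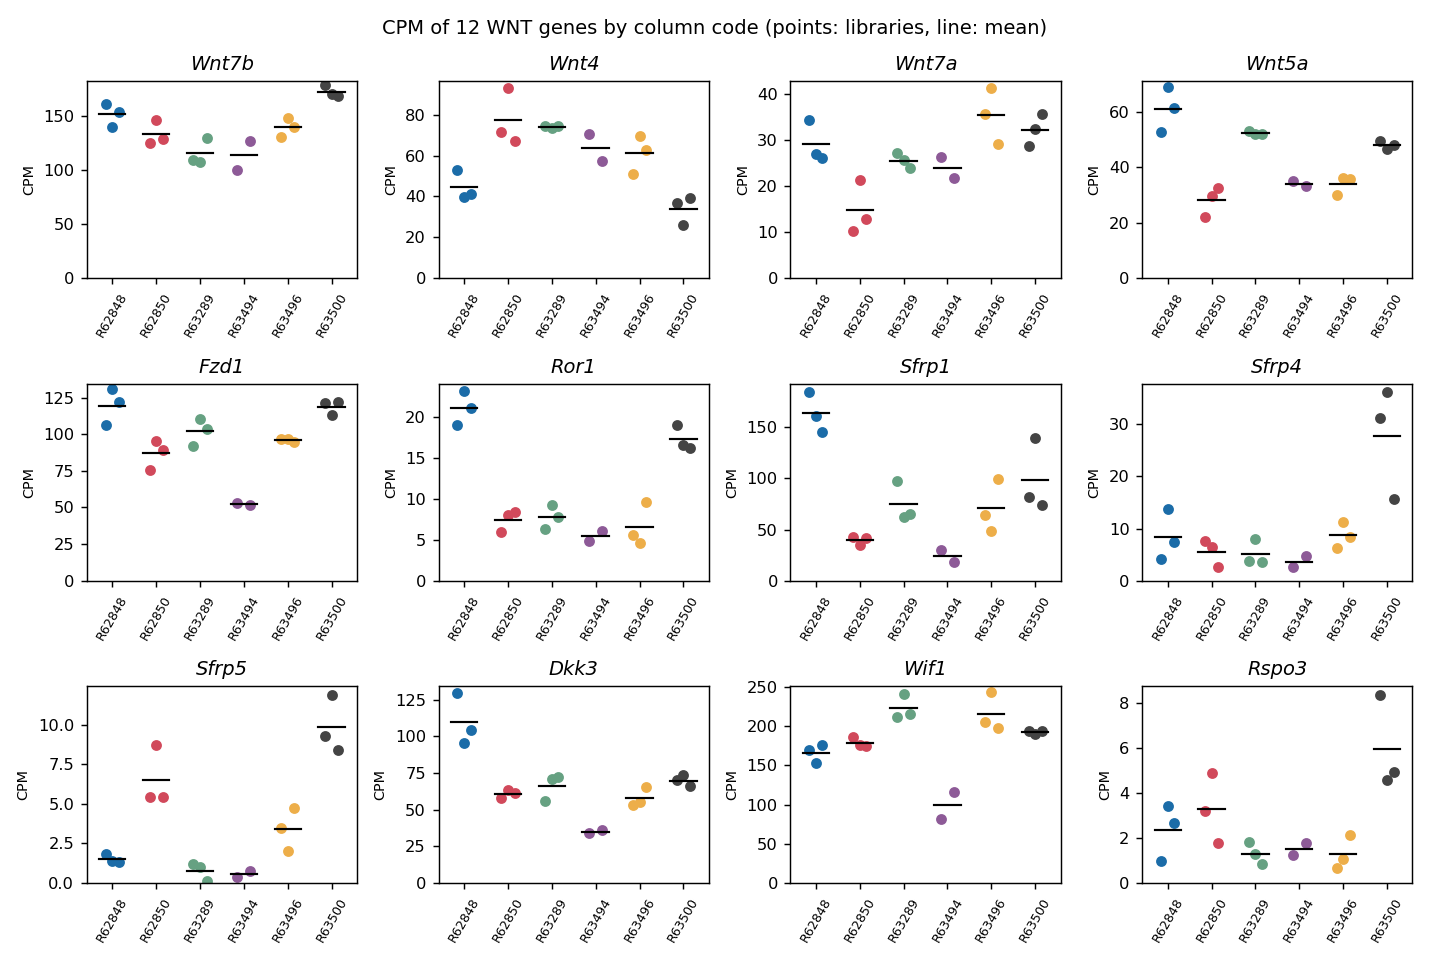
CPM of 12 of the WNT genes in each library, by code, with points for libraries and lines for the mean of a code. Wnt7b was highest and Wnt4 lowest in R63500, Fzd1, Dkk3 and Wif1 were lowest in R63494, Ror1, Sfrp1 and Dkk3 were highest in R62848, and Sfrp4, Sfrp5 and Rspo3 were highest in R63500 by the mean of the code.

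The rest of the pathway was read from a list of 45 further genes, from WNT secretion to the target genes of β-catenin. Of the 41 that were tested, 24 differed between codes, where 48.7% of all tested genes did. In R63494, 8 of the 41 were lower (10.6% of all tested genes) and 1 higher (9.3% of all), and in R63500, 11 were higher (13.2% of all) and 0 lower (8.93% of all). In R62850, 8 were lower (12.8% of all) and 5 higher (11.7% of all). In R62848, 7 were higher (15.2% of all) and 3 lower (10.6% of all), shares near those of all genes. Ctnnb1, which encodes β-catenin, stood at 231 to 312 RPKM, Wls, which carries WNT ligands to the cell surface, at 43.3 to 56.5 RPKM, and Gsk3a, a kinase that marks β-catenin for breakdown, at 42.1 to 50.4 RPKM. These were the 3 genes of the list with the highest median RPKM, and the 3 tested genes with the widest standard deviation of log2 CPM were Frzb, Notum and Sp5. Frzb, another Frizzled-related antagonist, stood at 24.3, 23.4 and 23.2 CPM in R62848, above all other libraries, and at 4.42 and 3.21 CPM in R63494. Notum, an enzyme that removes the lipid from WNT ligands, stood at 6.76, 10.3 and 4.18 CPM in R62850 and at 1.33 and 1.86 CPM in R63494. Sp5, a target gene of β-catenin, stood at 0.277 to 3.93 CPM.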

How the data were processed

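Bulk RNA-seq of mouse bile duct was analysed from a single table. It gave, per the file headers, whole-number counts of reads per gene and a length for each of 43346 genes in 17 libraries. Another 17 columns of values per library, in another unit, were not used. Tools in the submitters' processing notes were edgeR 3.40.2, featureCounts and STAR 2.6.1c, with the build mm10, and no role of each. Annotation release and strand setting: not given in the sources used here. The members and gene lists were chosen with earlier results of these data known.

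Counts were filtered with filterByExpr (intercept only, 15795 genes kept), scaled by TMM factors and tested with edgeR 4.0.16 (R 4.3.3) by the quasi-likelihood test, with 1 term per column code, robust dispersion and Benjamini-Hochberg adjustment over all kept genes at 0.05. An F test asked for any difference between codes, and 6 contrasts set each code against the mean of the other codes. Log2 fold changes are given ± standard error. CPM and RPKM were computed from the counts with TMM-scaled library sizes, and log2 CPM with a prior count of 2. No 2 libraries agreed within sampling noise (lowest chi-square over its degrees of freedom 4.24). The biological coefficient of variation within codes was 15.1%. The procedure was tested on simulated data with changes placed in R63500. The F test recovered 34.3% of 1.5-fold, 50.7% of 2-fold and 90.9% of 4-fold changes, with 8 false calls among 15732 genes. The contrast of R63500 recovered 50.7%, 67.2% and 97% of them in that order, with 4 false calls. Smaller differences can thus have been missed.

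Genes named in full were the 12 with the widest standard deviation of log2 CPM and, in each role, the 3 of highest median RPKM. Wnt5a, Wnt2b, Dkk3, Fzd3, Fzd4, Fzd5, Fzd8 and Fbxl14 fall outside this rule and were chosen after their values were seen. Alternatives were DESeq2 1.42.0, limma 3.58.1 (trend), DESeq2 and upper-quartile size factors, other filters, the running number as a block, each library left out, a prior count of 0.5, and RPKM without TMM factors.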

Additional observations from a re-analysis of the deposited data

How the results depend on the processing

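Of the 64 calls of a WNT gene in a code, 32 held under every alternative run, and the other 32 lost significance under at least 1; of 1536 recomputed values, 0 changed direction and 101 lost significance, 85 of these with a library left out. DESeq2 lost 0 of the 64 calls, DESeq2 size factors 1, limma 2, no filter 1, the filter by codes 1 and upper-quartile factors 5. With a library left out, the number of WNT genes that differed between codes was 23 to 25 and that of all genes 6719 to 7969. The number called in a contrast was 9 to 14 for R62848, 5 to 11 for R62850 (5 without R62850_2), 8 to 17 for R63494 (10 without R63494_1 and 8 without R63494_2), 11 to 13 for R63500, 0 to 7 for R63289 and 0 to 6 for R63496. For R63289 the edgeR count was 0 without R63289_2, where 10 of 29 had an unadjusted p below 0.05, 2 without R63289_1 or R63289_3, and 3 without R63494_2. For R63496 it was 0 without R63496_2, where 6 of 29 had an unadjusted p below 0.05, and 3 without R62848_3 or R63496_3. The cause was not tested, beyond the fewer samples.

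Without the libraries of R62850 the contrasts called 11 WNT genes in R62848, 6 in R63289, 16 in R63494, 5 in R63496 and 12 in R63500, and without those of R63494 they called 13 in R62848, 15 in R62850, 6 in R63289, 6 in R63496 and 12 in R63500. Both alternatives were chosen after seeing the data. Counts over all genes were not computed for these contrasts, so whether the WNT genes stood out in them was not tested. The running number in the column names did not pair the libraries: same-numbered libraries of different codes correlated by -0.203 to 0.153 (mean 0.0017, 40 pairs), and 4 of 17 correlated best with their own number. With the number as a replicate block, 25 WNT genes and 7134 of all genes differed between codes, and the contrasts called 12, 10, 4, 17, 4 and 12 WNT genes in the order R62848, R62850, R63289, R63494, R63496 and R63500, with 6 of the 64 calls lost. In levels, 25 genes had a median of at least 1 RPKM under each alternative run, including RPKM without TMM factors, and 12 to 14 tested genes had a standard deviation of log2 CPM above 0.5. Wif1 stayed first among the antagonists with any library left out, whereas the order of the next 2 changed in 8 of 17 cases. Deposited values per length in place of RPKM were not run, because 1 measure per library was kept. Depth limits the 19 genes below the filter. With no filter 17 of them were tested and 7 were called in at least 1 code, 10 calls in all, from at most 75 counts in any library: Lgr6, Wnt6, Wnt16, Rspo4, Wnt11, Wnt2 and Wnt1.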

Other observations

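Some genes known as targets or modulators of β-catenin signalling had their highest level in the library R62850_2. They were picked after their values were seen and rest on 1 library, so that no test applies. Of the 41 other pathway genes tested, 5 were highest in R62850_2 (12.2%, against 6.03% of all tested genes): Axin2, Notum, Sp5, Bcl9l and Tnfrsf19. As many were highest in R62850_3 (6.44% of all) and in R63494_2 (8.36% of all). Further targets, modulators and TCF/LEF factors were highest elsewhere: Nkd1 and Znrf3 in R63289_1, Rnf43 in R63500_2, Apcdd1 in R63496_2, and Tcf7 and Lef1 in R62850_3. Axin2, a feedback inhibitor and target gene, stood at 33.1 CPM in R62850_2, against 7.75 to 26.0 CPM in the other 16 libraries, of which the other 2 of R62850 had 26.0 and 23.3 CPM. Notum stood at 10.3 CPM in R62850_2, against 1.33 to 6.88 CPM elsewhere, and Sp5 at 3.93 CPM, against 0.277 to 2.70 CPM. Lgr5 had 50 counts there and at most 10 in any other library. Of the 30 tested WNT genes, 4 had their highest value in R62850_2 (13.3%, against 6.03% of all tested genes): Wnt4, Wnt5b, Dkk2 and Sfrp2. R63500_2 had 5 (16.7%, against 10.9% of all). Pancreatic acinar RNA made up 1.669% of the counts of R62850_2, 0.4055% of R62850_1 and 8.095% of R62850_3, and its part in these values was not tested.

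The libraries of R63494 held the lowest values of many WNT genes: R63494_1 was lowest for 7 of 30 (23.3%, against 10.2% of all tested genes) and R63494_2 for 5 of 30 (16.7%, against 8.94%).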
